A study of Mus musculus with 8 samples.

Results

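Genes encoding the proteins of the sarcomere and its Z-disc were compared between denervated and innervated tibialis anterior, a shin muscle made up mainly of fast fibres. Members were taken by gene symbol: the myosin heavy and light chains and light chain kinases, the troponins other than Tnnt2, tropomyosins, alpha-actinins, skeletal actin, tropomodulins, leiomodins, myomesins, myozenins, myosin-binding proteins, the PDZ and LIM, CSRP and Xin families, myotilin, Ldb3, telethonin, titin and nebulin. This rule found 55 of 14860 genes measured by a probe set with a single symbol. The animals were male C57BL/6 mice aged 8 weeks, with no transgene named. The left sciatic nerve was cut, and 7 days later the muscles of both legs were taken. The control was thus the unoperated leg of operated mice, and no sham-operated animal is among the samples used here. Each group held 4 arrays. Whether these are 4 separate animals is not in the labels, and the p-values below cover the spread between these samples alone, which may be technical.

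Probe sets for the sarcomeric myosin heavy chains of skeletal muscle carried several symbols each and are not analysed here. Titin, nebulin, Myl3, Tnnt1, Myom3 and Myoz3 are not analysed here either. Of the 55 members, 8 belonged to the thick filament, 11 to the thin filament, 2 to the M-band and 11 to the Z-disc of striated muscle. A further 20 were isoforms of smooth muscle or non-muscle cells or family members not specific to the sarcomere, and 2 were light chain kinases. The last, Tnni3k, matched by its symbol only and encodes a heart kinase that binds troponin I.

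In the sarcomere, thick filaments of myosin slide between thin filaments of actin. Calcium starts this movement by binding troponin C, which shifts tropomyosin on the thin filament, and myosin light chains and myosin-binding protein C tune the cross-bridge. Thin filaments are anchored by alpha-actinin in the Z-disc, where myozenins, Ldb3 and telethonin are scaffolds, and thick filaments are cross-linked by myomesins at the M-band. Many of these proteins come as fast-fibre and slow-fibre isoforms from separate genes, and loss of the nerve makes skeletal muscle lose contractile protein.

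Levels are given as log2 intensity. Changes are log2 differences, negative where denervated muscle was lower, with the SE of a limma fit that takes the replicate number as a block, and the calling threshold was 0.05 for the p adjusted over all 14860 genes. The table ran from 1.67 to 13.13 with no detection calls, so no gene could be called absent. Both arrays of replicate 3 were narrower in range than the rest: their SD across probe sets was 1.36 (innervated) and 1.25 (denervated), that of the other arrays 1.45 to 1.56, and denervated replicate 3 correlated with its group at 0.927 to 0.93. The 10 muscle fibre markers were all measured, with a mean level of 10.49 to 10.96 on innervated arrays and 9.29 to 10.24 on denervated arrays. Of these markers 6 fell, against 4.89% of all genes. Macrophage and leukocyte markers had a mean of 5.92 to 6.23 against 6.50 to 7.47, with 3 of 8 higher, against 3.56% of all genes. Of 10 fibroblast markers 2 rose and of 10 endothelial markers 2 fell, while none of 10 smooth muscle and pericyte markers or 6 Schwann cell markers passed limma's threshold. The part of these shifts in the results below was not tested. In whole muscle, fewer fibres and less RNA per fibre cannot be told apart.

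Members that changed after denervation mostly fell. Of the 55 members 10 fell and 3 rose, or 23.6%, against a background of 8.45% of all genes. By direction, 18.2% of members fell against 4.89% of all genes, and 5.45% rose against 3.56%. All 13 moved one way in all 4 replicate numbers, and 7 of them by at least 2-fold. The fit that chose the 13 uses these same 4 differences, so their agreement in sign is no separate support. The falls were those of Myoz1, Myom2, Myl2, Tmod4, Mybpc2, Myl1, Ldb3, Myom1, Pdlim7 and Mylpf, and the rises those of Myl12a, Pdlim3 and Myh14. The median change over all members was -0.11, and over all genes -0.006. In the 4 striated classes together 9 of 32 members fell (28.1%) and 1 rose (3.12%), with a median of -0.24.

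The structures differed in how many members passed, without any test of that difference. Both M-band genes fell, as did 4 of 8 thick filament genes, 1 of 11 thin filament genes and 2 of 11 Z-disc genes, where 1 rose. Median changes were -1.15 for the M-band, -0.29 for the thick filament, -0.23 for the thin filament and -0.22 for the Z-disc, and 0.00 for the smooth and non-muscle isoforms. The medians in replicates 1 to 4 were -0.66, -0.21, -0.43 and -0.25 for the thick filament, -0.41, -0.25, -0.21 and -0.34 for the thin filament, and -0.41, 0.09, -0.08 and -0.22 for the Z-disc. A count that uses no fit, made on the deposited values only, gave another picture of the thin filament. The 4 denervated values lay below the 4 innervated ones, with no overlap, for 7 of its 11 genes, against 7.4% of all genes (5.32% lay wholly above), and for 3 thick filament, 2 M-band and 2 Z-disc genes. This count depends on how the arrays are scaled and was not repeated after other normalization. Tnni2 and Tnnt3, both among the 7, had changes of 0.01 and 0.07 after quantile normalization. After quantile or cyclic loess normalization the thin filament median was -0.09 and -0.12, while the largest of its changes, in Tmod4, was -1.02 and -1.01 against -1.12. Without replicate 3, 12 members passed, 11 of them among the 13, and Tmod1 was added. Without replicates 1 and 4 the numbers that fell dropped from 10 to 3 and 4, and to 6 with no block.

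**Figure D1:**
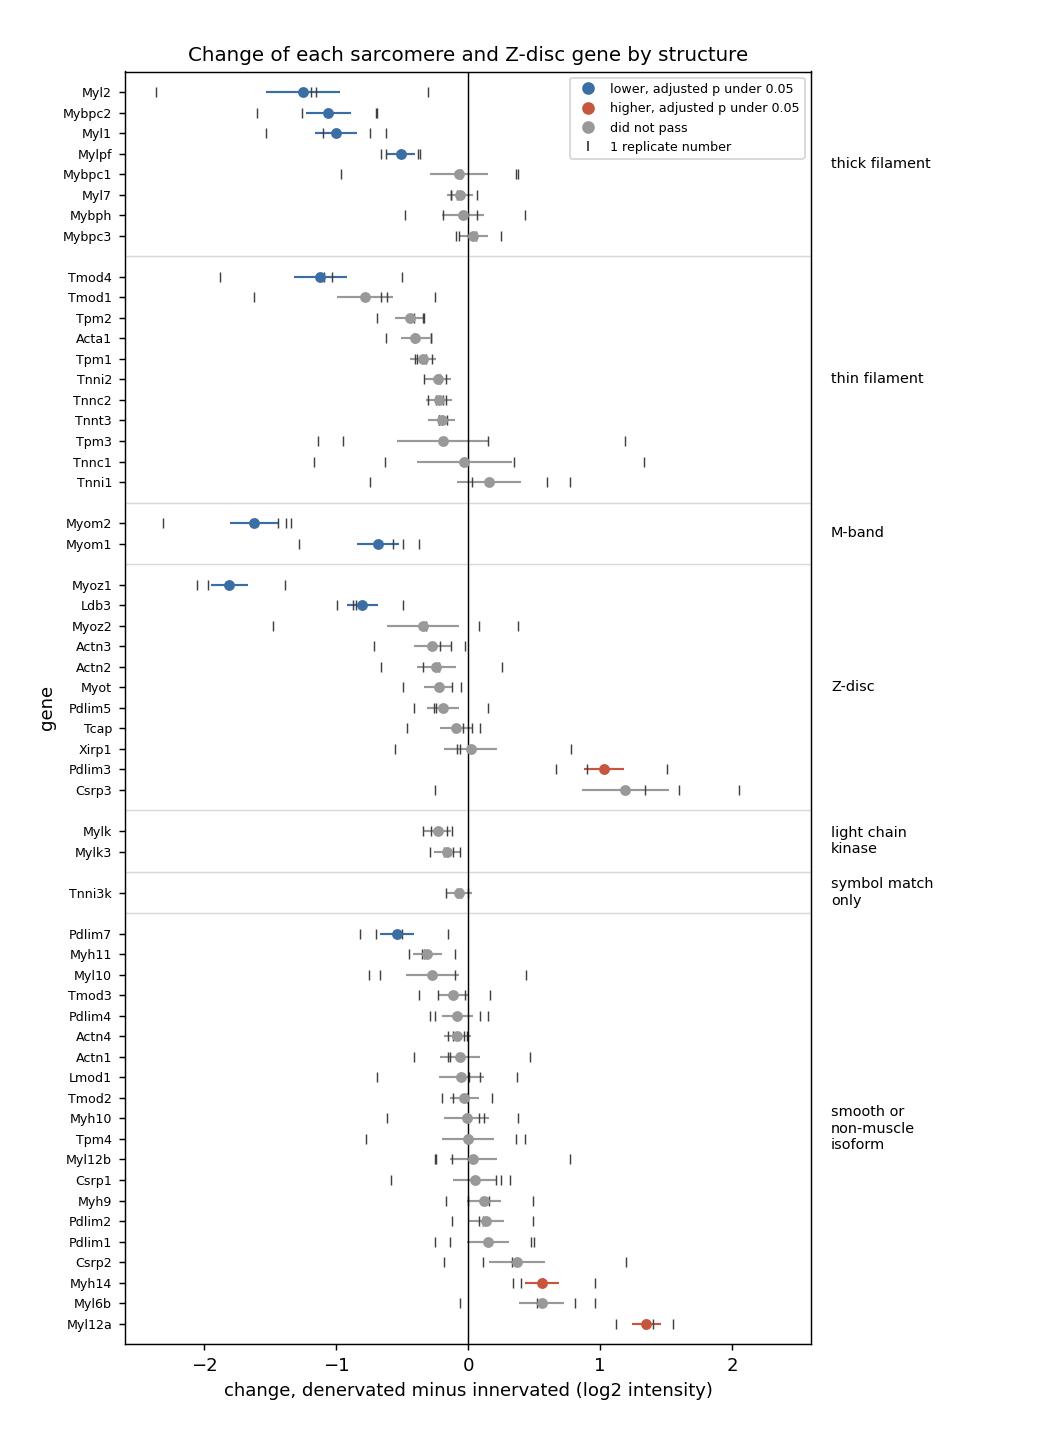
Change of each of the 55 genes (x axis, denervated minus innervated log2 intensity) by structure (rows). Circles with bars are the fitted change and its SE over 4 replicate numbers, and ticks are the single replicate numbers; blue genes fell, red genes rose and grey genes did not pass. Both M-band genes and 4 of 8 thick filament genes are blue, and the thin filament genes are grey apart from Tmod4.

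Thick filament light chains of fast fibres fell together. Myl1, the fast essential light chain, read 9.77, 9.85, 9.39 and 9.63 on innervated arrays 1 to 4 and 8.67, 9.23, 7.87 and 8.89 on denervated arrays 1 to 4. Every denervated value was below every innervated one, and it fell 1.99-fold (SE 0.16 on the log2 scale, limma adjusted p = 0.0109). Mylpf, the fast regulatory light chain, read 12.03, 12.01, 11.92 and 11.94 against 11.41, 11.65, 11.26 and 11.57. Its groups did not overlap either, and its fall was smaller, at -0.51 (SE 0.11, adjusted p = 0.0308). Myl2, the slow and ventricular regulatory light chain, read 11.04, 11.14, 10.47 and 11.39 against 8.68, 10.85, 9.32 and 10.20. It fell by 1.25 on the log2 scale (SE 0.28, adjusted p = 0.0372), with differences of -2.36 in replicate 1 and -0.30 in replicate 2, and its groups overlapped through denervated replicate 2. The atrial light chain Myl7 was dim, at 5.76 ± 0.21 and 5.70 ± 0.23 (SD, n = 4), near the array medians of 5.84 to 6.00, and had a change of -0.06.

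Of the myosin-binding proteins, the fast isoform fell. Mybpc2, the fast isoform of myosin-binding protein C, read 11.50, 11.43, 11.21 and 11.62 in innervated muscle and 10.81, 10.73, 9.61 and 10.36 in denervated muscle, with no overlap. It fell by 1.06 (SE 0.17, adjusted p = 0.0107), or 2.08-fold, and by 0.88 without replicate 3. Mybpc1, the slow isoform, read 11.06, 10.91, 10.22 and 11.03 against 10.10, 11.29, 10.58 and 10.97. These groups overlapped, and its change of -0.07 (SE 0.22, adjusted p = 0.918) turned positive after quantile and cyclic loess normalization (0.10 and 0.09) and without replicate 1 (0.23). The cardiac isoform Mybpc3 and Mybph, a related protein of fast fibres, had changes of 0.04 and -0.04 and did not pass.

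Of the 4 thick filament calls, those of Mylpf and Myl2 were lost after cyclic loess (0.0895 and 0.0548) or quantile normalization (0.127 and 0.0767) and on leaving out replicates 1 (0.154 and 0.0968) and 4 (0.105 and 0.102), Mylpf also without replicate 2 (0.0747) and Myl2 without replicate 3 (0.0563). Myl1 missed the threshold with no block (0.0519) and without replicate 1 (0.0786), Myl2 with no block (0.127), and Mybpc2 without replicate 4 (0.0502), so that 1 of the 4 passed without replicate 1 and 1 without replicate 4.

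The thin filament showed its one call at the pointed end. Tmod4, a skeletal muscle tropomodulin that caps actin filaments at that end, read 10.61, 10.39, 10.31 and 10.54 against 9.58, 9.89, 8.43 and 9.45. The groups did not overlap, and the change was -1.12 (SE 0.20, adjusted p = 0.0158) and -0.87 without replicate 3. Its relative Tmod1 read 9.78, 9.57, 9.49 and 9.83 against 9.13, 9.32, 7.87 and 9.22. Its groups did not overlap either, but the adjusted p for its change of -0.78 (SE 0.21) was 0.0632. It passed without replicate 3, with a smaller change of -0.51 (adjusted p = 0.0422), with array weights (0.0218), when the dimmest 25% was dropped (0.0334) and after cyclic loess (0.0353). The call of Tmod4 was lost without replicates 1 (0.0865) and 4 (0.0575).

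Acta1, Tpm1, Tpm2 and the fast troponins were lower in all 4 replicate numbers by small amounts that did not pass, and the troponin differences turned positive after quantile and cyclic loess normalization. Acta1, skeletal alpha-actin, read 12.49, 12.56, 12.32 and 12.46 against 12.08, 12.28, 11.69 and 12.18, a change of -0.40 (SE 0.11, adjusted p = 0.0731). The groups did not overlap. Quantile normalization shrank the change to -0.15 (adjusted p = 0.48) and cyclic loess to -0.16 (0.312), whereas it passed with array weights (0.0465) and with the dimmest 25% left out (0.0448). Tpm2, beta-tropomyosin, went from 11.23 ± 0.04 to 10.79 ± 0.16 (change -0.44, adjusted p = 0.053). It passed in the same alternatives (0.0251 and 0.0307), while quantile normalization gave -0.28 (0.201) and cyclic loess -0.27 (0.213). Tpm1, alpha-tropomyosin, went from 12.09 ± 0.09 to 11.75 ± 0.14 (change -0.34, adjusted p = 0.0835). It passed with array weights (0.0427), while quantile normalization gave -0.09 (0.635) and cyclic loess -0.13 (0.549). Thus 5 thin filament genes fell with array weights and 4 with the dimmest 25% left out, against 1 in the main setting.

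The 3 fast troponin subunits moved as a tight group near the top of the intensity scale. The highest value on arrays 1 to 4 was 13.13, 13.115, 13.059 and 13.017 for innervated and 12.846, 12.931, 13.021 and 12.888 for denervated muscle. The top of the scale was thus itself mostly lower on denervated arrays. Whether changes and spreads of genes this bright are understated or overstated as deposited was not tested. Tnnt3, which binds tropomyosin, read 12.80, 12.81, 12.77 and 12.72 against 12.57, 12.59, 12.57 and 12.56. Tnni2, the inhibitory subunit, read 12.53, 12.59, 12.64 and 12.49 against 12.20, 12.36, 12.43 and 12.32. Tnnc2, the calcium-binding subunit, read 12.71, 12.77, 12.81 and 12.63 against 12.47, 12.47, 12.65 and 12.44. Each was lower on the denervated array of every replicate number, and only Tnnc2 overlapped, through denervated replicate 3. Their changes were -0.20, -0.23 and -0.22 as deposited, with an adjusted p of 0.294, 0.225 and 0.248, and turned to 0.07, 0.01 and 0.05 after quantile and 0.05, 0.01 and 0.03 after cyclic loess normalization.

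**Figure D2:**
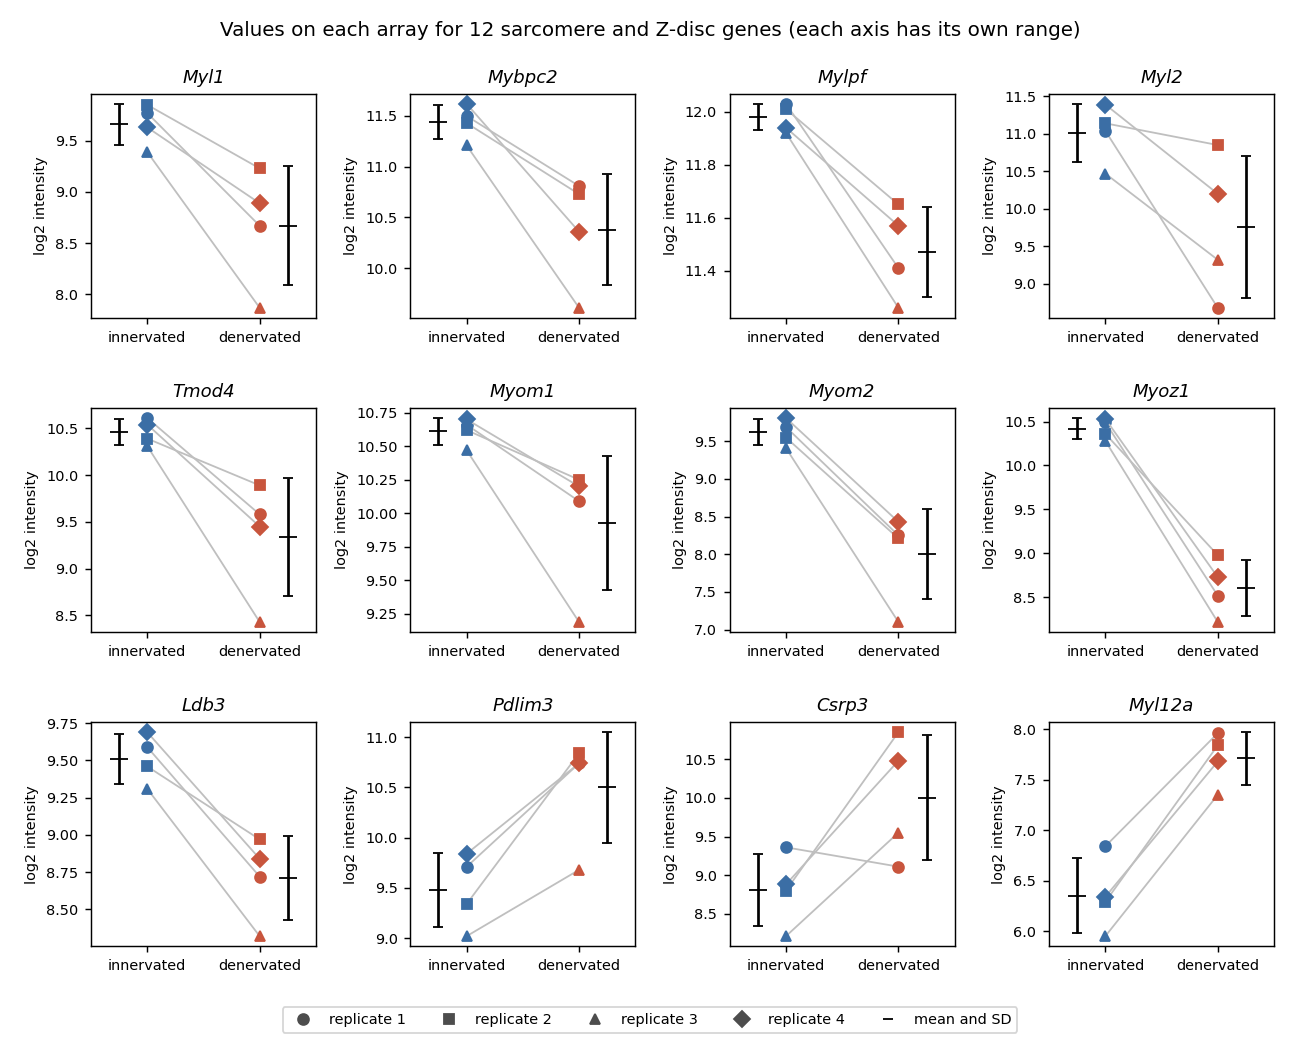
Log2 intensity (y axis, a range of its own in each panel) on each array for 12 genes, with innervated values at left and denervated values at right. Symbols are replicate numbers joined by lines, and the black marks are means with SD over 4 arrays. Denervated values lie below innervated ones without overlap for Myl1, Mybpc2, Mylpf, Tmod4, Myom1, Myom2, Myoz1 and Ldb3, and above them for Myl12a.

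The promoter of Acta1 is shown with those of 2 members that fell and hold the same element, a CArG box, which is the binding site of serum response factor. Each line gives the 250 bases before the annotated start, 5′ to 3′ on the gene's strand, from RefSeq on GRCm38.p6, with the CArG box in capitals. Acta1 lies at chr8:123894776-123895025, minus strand, Myom1 at chr17:71019307-71019556, plus strand, and Ldb3 at chr14:34588682-34588931, minus strand.
Acta1: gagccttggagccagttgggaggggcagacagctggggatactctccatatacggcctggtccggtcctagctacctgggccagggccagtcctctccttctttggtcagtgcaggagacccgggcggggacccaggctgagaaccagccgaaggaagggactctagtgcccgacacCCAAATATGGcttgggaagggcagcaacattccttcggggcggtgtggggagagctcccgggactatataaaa
Myom1: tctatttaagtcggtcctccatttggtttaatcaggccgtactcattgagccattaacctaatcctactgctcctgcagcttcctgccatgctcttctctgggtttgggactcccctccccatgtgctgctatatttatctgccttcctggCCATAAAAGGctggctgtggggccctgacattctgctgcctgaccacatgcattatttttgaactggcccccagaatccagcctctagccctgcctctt
Ldb3: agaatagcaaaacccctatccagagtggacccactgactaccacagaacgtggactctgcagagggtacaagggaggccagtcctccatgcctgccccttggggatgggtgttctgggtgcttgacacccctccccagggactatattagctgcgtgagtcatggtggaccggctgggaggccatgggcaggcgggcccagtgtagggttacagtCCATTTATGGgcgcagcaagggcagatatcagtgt
Counted from the start, the box begins at -73 in Acta1, -99 in Myom1 and -35 in Ldb3. Of 43 members with a promoter in that table, 4 held a CArG box on either strand in this window, namely these 3 and Myl7, or 9.3% against 1.4% of 27025 promoters. The changes of the 4 genes were -0.40, -0.68, -0.80 and -0.06 in the order Acta1, Myom1, Ldb3 and Myl7, of which those of Myom1 and Ldb3 passed. A MEF2 site was found in 2 members (Mybpc3 and Myoz2, or 4.65% against 3.01%) and the letters TATAAA in 4 (9.3% against 13%). For each gene the first promoter listed was used, and a match is a description of the letters only.

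Both M-band genes fell. Myom2, the M-protein of fast fibres, read 9.69, 9.55, 9.41 and 9.81 in innervated and 8.25, 8.21, 7.10 and 8.43 in denervated muscle. It fell 3.07-fold (change -1.62, SE 0.18, adjusted p = 0.00222), with no overlap, and passed in all 10 alternatives, with changes from -1.71 to -1.39. Myom1, the myomesin of all fibres, read 10.66, 10.62, 10.47 and 10.70 against 10.09, 10.25, 9.19 and 10.20, again without overlap. Its change was -0.68 (SE 0.16, adjusted p = 0.0437). Denervated replicate 3 was the lowest array for both, and without it the changes were -1.39 (adjusted p = 0.000647) and -0.48 (0.0313). The call of Myom1 was lost with no block (0.12) and without replicates 1 (0.151), 2 (0.0723) and 4 (0.105).

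In the Z-disc, scaffolds changed in both directions while the alpha-actinins did not pass. Myoz1, the fast-fibre myozenin that links calcineurin to alpha-actinin, read 10.49, 10.36, 10.28 and 10.53 against 8.52, 8.98, 8.22 and 8.73. With no overlap, it fell 3.49-fold (change -1.81, SE 0.14, adjusted p = 0.000558), more than any other member, and passed in all 10 alternatives. Ldb3, a PDZ and LIM protein that binds alpha-actinin, read 9.59, 9.46, 9.31 and 9.69 against 8.72, 8.97, 8.32 and 8.84. It also fell without overlap (change -0.80, SE 0.12, adjusted p = 0.00786), but missed the threshold without replicate 1 (0.0647).

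Pdlim3, another PDZ and LIM protein that binds alpha-actinin, rose. It read 9.71, 9.34, 9.02 and 9.84 in innervated muscle and 10.74, 10.84, 9.68 and 10.74 in denervated muscle, so that 3 of the 4 denervated arrays were above all innervated ones. The change was 1.03 (SE 0.15, adjusted p = 0.0068), or 2.04-fold, and the call was lost with no block (0.0607) and without replicate 1 (0.0567). Csrp3, the muscle LIM protein, had an equally large change that differed between replicate numbers. It read 9.36, 8.80, 8.21 and 8.88 against 9.11, 10.85, 9.55 and 10.48. The differences were -0.25, 2.05, 1.34 and 1.60, and the adjusted p for the change of 1.19 (SE 0.33) was 0.075. Without replicate 1 it was 1.67 and passed (adjusted p = 0.013), as it did with array weights (0.0313) and with the dimmest 25% left out (0.0392).

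The other Z-disc genes did not pass in any setting. Actn3, the fast-fibre alpha-actinin, read 11.80, 11.74, 11.53 and 11.88 against 11.67, 11.72, 10.82 and 11.67 (change -0.27, SE 0.14, adjusted p = 0.322). Actn2, the alpha-actinin of all fibres, read 10.16, 10.05, 9.07 and 10.38 against 9.49, 10.31, 8.73 and 10.17 (change -0.24, SE 0.15, adjusted p = 0.454). Both genes had their lowest value in each group on the arrays of replicate 3. Myot, which encodes the actin cross-linker myotilin, read 11.61, 11.59, 11.53 and 11.66 against 11.56, 11.46, 11.04 and 11.45, a change of -0.22 (adjusted p = 0.339) that was 0.00 after quantile normalization. Tcap, the titin cap telethonin, read 9.13, 9.54, 8.85 and 9.54 against 9.09, 9.64, 8.88 and 9.09, a change of -0.09 (adjusted p = 0.769). Its values overlapped almost wholly. Xirp1, an actin-binding repeat protein, had a change of 0.02, with 0.78 in replicate 2 and -0.55 in replicate 1. Pdlim5 was the single member with 2 probe sets; the brighter had a change of -0.19 (adjusted p = 0.461), and the other, which was not used, a mean change of -0.59.

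Genes of slow fibres varied more between innervated arrays than genes of fast fibres did. Over the innervated arrays, the SD of the 7 slow-fibre members ran from 0.39 to 1.36, that of the 10 fast-fibre members from 0.04 to 0.20, and the median over all genes was 0.175. The 12 striated genes of both fibre types reached into the slow-fibre range, from 0.04 to 0.58. The highest was Actn2, also lowest among innervated arrays on array 3 (9.07). Over the denervated arrays the ranges of slow-fibre and fast-fibre members overlapped, from 0.48 to 1.05 for slow-fibre and from 0.02 to 0.60 for fast-fibre members. Some fast-fibre genes, such as the troponins, lay near the top of the intensity scale, and whether this narrowed their SD was not tested. Tnnc1, slow and cardiac troponin C, read 8.71, 10.21, 7.40 and 10.22 in innervated and 8.08, 10.56, 8.73 and 9.05 in denervated muscle. Tpm3, the tropomyosin of slow fibres that non-muscle cells also make, read 8.60, 9.98, 7.69 and 9.84 against 7.64, 10.12, 8.88 and 8.69. Tnni1, slow troponin I, read 6.00, 6.48, 5.36 and 7.08 against 6.03, 7.08, 6.13 and 6.34. The 3 genes shared a profile, high on innervated arrays 2 and 4 and denervated array 2, with innervated array 3 the lowest of the 8 for Tnnc1 and Tnni1 and second to denervated array 1 for Tpm3. The Z-disc gene Myoz2, the slow-fibre myozenin, read 9.51, 9.53, 8.57 and 9.80 against 8.04, 9.91, 8.65 and 9.47, again highest on denervated array 2.

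All 7 slow-fibre genes had their lowest innervated value in replicate 3, as had 7 of the 10 fast-fibre genes and 28.9% of all genes. Of the 7 slow-fibre genes only Myl2 passed. Their median change was -0.07, with -0.95, 0.38, 0.77 and -0.74 in replicates 1 to 4, so its sign depended on the replicate number. Changes were -0.03 (SE 0.36, adjusted p = 0.98) for Tnnc1, -0.19 (SE 0.35) for Tpm3, 0.16 (SE 0.24) for Tnni1 and -0.34 (SE 0.27, adjusted p = 0.578) for Myoz2. All 10 fast-fibre genes were lower in all 4 replicate numbers, with a median of -0.42. So were 7 of the 12 striated genes of both fibre types and 1 of the 7 slow-fibre genes. The share over all genes was not computed for this count. Of the 10 fast-fibre genes 5 passed (Myoz1, Myom2, Mybpc2, Myl1 and Mylpf), against 4.89% of all genes that fell. After quantile and cyclic loess normalization 3 of the 10, the troponins, turned positive. The change of Actn3 shrank to -0.00 after quantile and -0.07 after cyclic loess normalization.

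**Figure D3:**
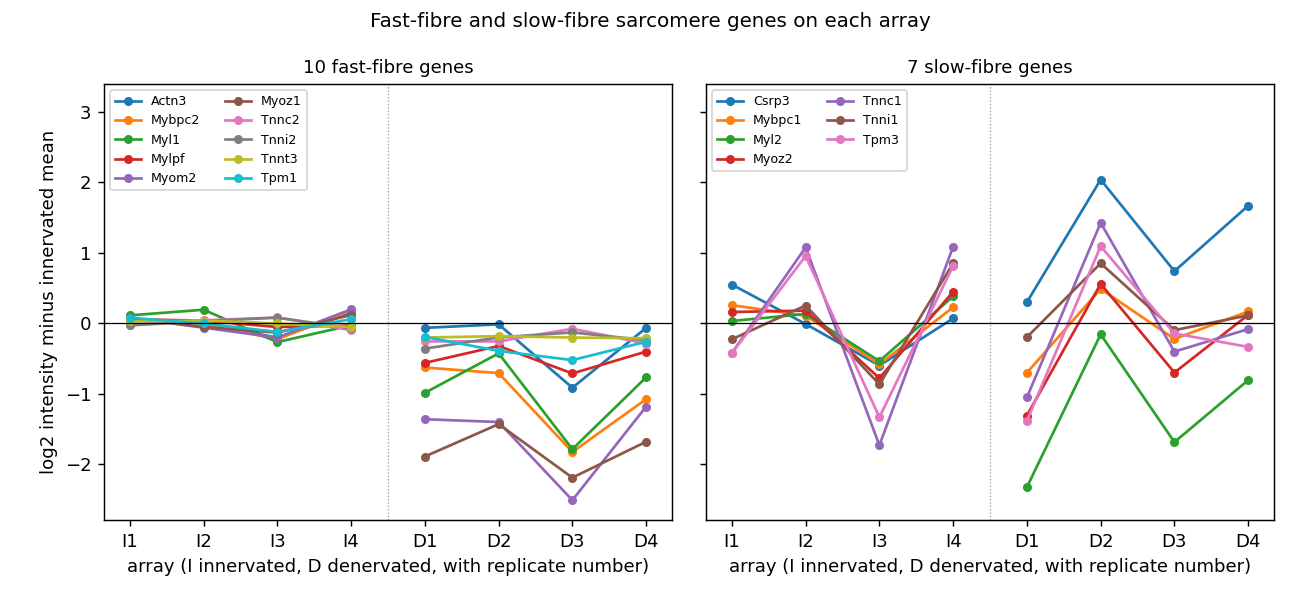
Log2 intensity minus the innervated mean of the gene (y axis) on each array (x axis, I innervated and D denervated with the replicate number) for 10 fast-fibre genes and 7 slow-fibre genes. Lines join the arrays of 1 gene and imply no order. On innervated arrays the fast genes stay within narrow bounds (SD 0.04 to 0.20), while the slow genes spread (SD 0.39 to 1.36) and dip together on array I3.

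Whether related isoforms, mostly a fast one and its slow counterpart, responded differently was tested as the change of their log2 ratio within each array. The test was an exact two-sided permutation of 4 against 4 arrays. Actn3 over Actn2 sets a fast-fibre gene against one of all fibres, and Myl12a over Myl12b, given below, is a non-muscle pair. Pairs were chosen with values known, 8 were tested, and the smallest p this design allows is 0.0286. Myoz1 over Myoz2 changed by -1.47, with differences of -0.50, -1.76, -2.14 and -1.48 in replicates 1 to 4 (exact p = 0.0286, 0.114 adjusted over the 8 pairs). Mybpc2 over Mybpc1 changed by -0.99, in 3 of 4 replicate numbers (exact p = 0.114). The ratio of the regulatory light chains Mylpf over Myl2 changed the other way, by 0.74, in 3 of 4 (exact p = 0.2). The ratios for troponin C, troponin I, tropomyosin and alpha-actinin changed by -0.19, -0.40, -0.15 and -0.03, with an exact p of 0.4 to 0.971. The test does not use the replicate block, and 5 pairs would have to reach its smallest p for any to pass 0.05 after adjustment, so a p above the threshold here says nothing on whether counterparts differ.

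**Figure D4:**
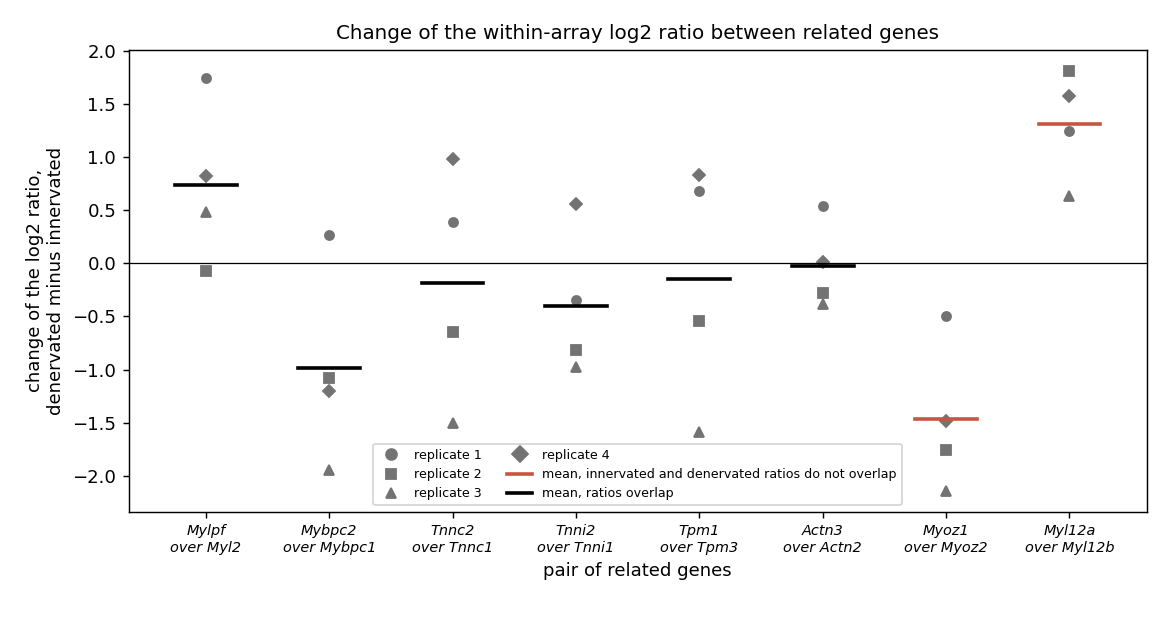
Change of the within-array log2 ratio (y axis, denervated minus innervated) for 8 pairs of related genes (x axis). Symbols are replicate numbers and bars their mean, in red where the 4 denervated ratios and the 4 innervated ratios do not overlap, as for Myoz1 over Myoz2 (-1.47) and Myl12a over Myl12b (1.31).

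The 20 members grouped as isoforms of smooth muscle and non-muscle cells had a median change of 0.00. Of these 2 were higher and 1 lower, or 10% and 5%, against 3.56% and 4.89% of all genes. Myl12a, a regulatory light chain of non-muscle myosin, had the largest rise of the 55 members, smaller in size than the falls of Myoz1 and Myom2. It read 6.84, 6.29, 5.95 and 6.34 in innervated muscle and 7.96, 7.84, 7.35 and 7.68 in denervated muscle, with no overlap. The change was 1.35 (SE 0.11, adjusted p = 0.000837), or 2.55-fold, and it passed in all 10 alternatives. Myl12b, its near-identical neighbour, read 9.42, 9.08, 8.93 and 9.39 against 9.30, 8.82, 9.70 and 9.16, a change of 0.04 (SE 0.18, adjusted p = 0.943). Denervated array 3 alone was above the innervated ones, and the change was -0.21 without it. The log2 ratio of Myl12a over Myl12b rose in all 4 replicate numbers, by 1.31 (exact p = 0.0286, 0.114 adjusted). Because the transcripts are alike, how far each probe set reads the other gene is uncertain.

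On chromosome 17 the coding genes Myl12b, Myl12a and Myom1 follow each other directly, so 3 neighbours gave a change of 0.04, a rise of 1.35 and a fall of 0.68 on the log2 scale. The promoters of the light chain genes are given for comparison with that of Myom1 above, with each E-box, the letters CANNTG bound by myogenic factors, in capitals. Myl12a lies at chr17:71002534-71002783, minus strand, and Myl12b at chr17:70990517-70990766, minus strand, by the same RefSeq table.
Myl12a: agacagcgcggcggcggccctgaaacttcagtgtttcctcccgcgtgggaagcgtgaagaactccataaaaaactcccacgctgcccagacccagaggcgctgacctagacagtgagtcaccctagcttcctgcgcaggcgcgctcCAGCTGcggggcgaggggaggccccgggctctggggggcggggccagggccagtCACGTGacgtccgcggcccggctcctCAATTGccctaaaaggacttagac
Myl12b: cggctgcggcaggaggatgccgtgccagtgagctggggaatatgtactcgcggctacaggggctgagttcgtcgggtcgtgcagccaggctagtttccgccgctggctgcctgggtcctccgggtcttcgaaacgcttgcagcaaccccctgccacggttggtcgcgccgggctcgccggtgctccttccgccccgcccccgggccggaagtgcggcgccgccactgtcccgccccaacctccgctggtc
The window of Myl12a held 3 E-boxes, beginning at -104, -50 and -24 from the start, and that of Myl12b none. An E-box on either strand was found in 34 of 43 members (79.1%) and in 66% of all promoters, so its presence is common.

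Among the other isoforms, Myh14, non-muscle myosin heavy chain IIC, rose from 6.17, 6.23, 6.07 and 6.34 to 7.13, 6.63, 6.41 and 6.90, without overlap (change 0.56, SE 0.13, adjusted p = 0.0406). It missed the threshold with no block (0.0766) and without replicates 1 (0.167), 2 (0.0914) and 4 (0.151). Pdlim7, a PDZ and LIM protein also known as Enigma, fell from 8.17, 8.11, 8.29 and 8.53 to 8.01, 7.60, 7.59 and 7.71 (change -0.54, SE 0.13, adjusted p = 0.0492), and passed in 3 of 10 alternatives. The adjusted p was 0.0546 with no block, 0.0763 with quantile and 0.0572 with cyclic loess normalization, and 0.0678, 0.133, 0.0791 and 0.221 on leaving out replicates 1 to 4. Pdlim7 was counted in this class, whereas Pdlim5, the Enigma homologue, was counted in the Z-disc. Its fall is thus not among the 2 Z-disc falls. The other 17 of this class lay between -0.31 for Myh11, the smooth muscle heavy chain, and 0.56 for the light chain Myl6b (adjusted p = 0.101), and none of these passed. They included Actn1 and Actn4 (-0.06 and -0.08), Myh9 and Myh10 (0.12 and -0.01), Tpm4 (0.00), Tmod2 and Tmod3 (-0.03 and -0.11), Lmod1 (-0.05), Csrp1 and Csrp2 (0.05 and 0.37), Myl10 (-0.27) and Pdlim1, Pdlim2 and Pdlim4 (0.15, 0.14 and -0.08). Myl6b was lowest on innervated array 3 (5.21) and highest on denervated array 2 (7.08), as was the slow-fibre gene Tnnc1 (7.40 and 10.56). It is not in the thick filament or slow-fibre counts above. The light chain kinases Mylk and Mylk3 had changes of -0.23 and -0.16, and Tnni3k one of -0.07. Of all members, Actn1, Lmod1, Myl10, Mylk3 and Tnni3k lay below the array median on every array, so that a change in them may not be seen.

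Of 21 measured partner genes outside these families 1 rose and 3 fell, with a median change of 0.04. Among all genes 3.56% rose and 4.89% fell. This list and those below were chosen with earlier results of these data known, so their counts describe the listed genes only. Fhl2, a LIM protein of the Z-disc and I-band, rose by 1.05 (adjusted p = 0.0149) from a dim 5.95 ± 0.26. Its relative Fhl3 changed by -1.44 (adjusted p = 0.0068), and Capza2 and Capzb, subunits of the protein CapZ that caps thin filaments at the Z-disc, by -0.79 and -0.75 (adjusted p of 0.00842 and 0.03). All 4 missed the threshold without replicate 1 (0.0511 to 0.0899), Fhl2 and Capzb also without replicates 2 (0.0617 and 0.0683) and 4 (0.0666 and 0.103), and Capzb with no block (0.106). Without replicate 3, 3 partners rose, Des, which encodes desmin, and Mlip being added (0.0491 and 0.0178).

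Of 16 measured assembly and chaperone genes 2 rose and 7 fell, with a median of -0.30. Against this, 3.56% of all genes rose and 4.89% fell, but the list was chosen with earlier results known. Smyd1, a methyltransferase needed for myosin assembly in zebrafish, went from 8.46 ± 0.19 to 7.17 ± 0.33 (change -1.29, SE 0.12, adjusted p = 0.00112), and Smyd2 changed by -0.95. The formins Fhod3 and Fhod1, which help to build actin filaments, changed by -0.91 and -0.47. The small heat shock proteins split: Hspb7 rose by 1.14 (adjusted p = 0.00203) and Hspb8 by 0.95 (adjusted p = 0.00358), while Hspb6 changed by -1.15 and Hspb2 by -0.78. Mstn, which encodes myostatin and is no assembly protein, was on this list too (change -1.58, adjusted p = 0.0137). Smyd1, Fhod3, Hspb7 and Hspb8 passed in every alternative. The others missed the threshold without replicate 1 (0.0534 to 0.139), Smyd2 and Fhod1 also without replicates 2 (0.0539 and 0.132) and 4 (0.1 and 0.193), and Smyd2, Hspb2 and Hspb6 with no block (0.0809, 0.221 and 0.125).

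Of 20 measured regulators of sarcomere genes 3 rose and 4 fell, against 3.56% and 4.89% of all genes. Srf, the serum response factor that binds the CArG box, went from 6.95 ± 0.09 to 6.36 ± 0.17 (change -0.59, SE 0.11, adjusted p = 0.0175). Abra, an actin-binding activator of that factor's cofactors, changed by -1.11 (SE 0.18, adjusted p = 0.011), Eya1, a cofactor in the transcription of fast-fibre genes, by -0.91 (adjusted p = 0.00464), and Sox6, a repressor of slow-fibre genes, by -0.72 (adjusted p = 0.0479). The myogenic factors Myf6 and Myod1 rose by 1.88 and 0.49, and the histone deacetylase Hdac4 by 1.23 (adjusted p of 0.000232, 0.0405 and 0.00549). Srf missed the threshold without replicates 1, 2 and 4 (0.077, 0.0533 and 0.102), Abra without 1 and 4 (0.0746 and 0.0507), Sox6 without these (0.153, 0.0615 and 0.124) and with no block (0.121), and Myod1 without them (0.178, 0.149 and 0.0966). Without replicate 3, 6 regulators rose, Mef2a, Myog and Eya4 being added (0.0413, 0.0357 and 0.0165).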

How the data were processed

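The authors deposited log2 intensity values for each probe set; per the submitters' processing notes, GCOS and RMA were used and the build was mm9. For versions and filters, nothing was given in the sources read. Per the labels, 50 ng of total RNA was amplified, fragmented to about 85 bases and labelled with biotin.

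Of 16755 probe sets, 14996 had 1 symbol in the platform annotation; the brightest per gene was kept, giving 14860 genes. Different probe sets were compared by their changes, their SDs or the change of a within-array log2 ratio. By level, single genes were only placed against the array as a whole, as dim or near the top. Precision is limited by having 4 arrays a group. The limma model (3.58.1, R 4.3.3) had group and replicate number (block) as terms, and p-values were adjusted by Benjamini-Hochberg. The block follows the submitters' use of the contralateral muscle; same-numbered arrays deviated together at 0.234, -0.03, 0.453 and 0.349, so number 2 shows no pairing. On simulated data of the 14860 genes, 19 of 80 changes of 0.5, 60 of 60 of 1 and 60 of 60 of 2 were recovered. False calls were 10 of 149. The simulated noise was independent between arrays, with no replicate effect and no narrower array, so recovery in the real data may be lower.

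Members, roles and lists were chosen with earlier results of these data known. Called members and a fixed set of isoforms are given in full. Alternatives were no block, quantile and cyclic loess normalization, the dimmest 25% left out, probe set means, array weights, and each replicate left out. Promoters are from RefSeq GRCm38.p6, where 43 of 55 members matched.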

Additional observations from a re-analysis of the deposited data

Results flagged for a closer look

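Denervated replicate 3 stood far from the other 3 denervated arrays for 7 members, by a gap to the nearest array above Dixon's critical share of the group's range. It was low for Actn3 (10.82 against 11.67 to 11.72), Myom1 (9.19 against 10.09 to 10.25), Myom2 (7.10 against 8.21 to 8.43), Pdlim3 (9.68 against 10.74 to 10.84) and Tmod1 (7.87 against 9.13 to 9.32). It was high for Tnnc2 (12.65 against 12.44 to 12.47) and Tnni3k (5.33 against 4.84 to 4.88). Chance flags about 1 in 20 groups of this size, and 110 were examined. All 7 values came from the one array whose probe sets had the smallest SD, 1.25. Without replicate 3 the changes of Myom1, Myom2 and Pdlim3 were -0.48, -1.39 and 1.15, each past the threshold, and those of Actn3 and Tnnc2 were -0.12 and -0.24.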

How the results depend on the processing

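With no replicate block 800 of all genes passed against 1255, 6 members fell and 1 rose against 10 and 3. By structure 2 thick filament and 1 M-band member then fell, 0 Z-disc members and 1 smooth or non-muscle isoform rose, and 0 of the latter fell. Quantile normalization left 2 thick filament falls against 4, a thin filament median of -0.09 against -0.23 and 0 falls among the isoforms. Cyclic loess gave 2 thick and 2 thin filament falls, a thin filament median of -0.12 and 0 isoform falls. With the dimmest 25% left out 4 thin filament members fell and 2 Z-disc members rose. With array weights 2200 genes passed, 5 thin filament members fell with a median of -0.34, and 2 Z-disc members rose. Leaving out each replicate number gave 347 to 1643 genes, 3 to 9 members that fell (thick filament 1 to 3, thin 0 to 2, M-band 1 to 2, Z-disc 1 to 2, isoforms 0), 2 to 3 that rose (isoforms 1 to 2) and thin filament medians of -0.33 to -0.22. With means of probe sets 1252 genes passed, and no count of members moved. No called member reversed. Only Myl12a, Myom2 and Myoz1 passed in every alternative. Without detection values a dim change may be understated.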
